A study of Homo sapiens with 6 samples.

Results

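The 10 genes described here encode secreted inflammatory cytokines and chemokines. They are the neutrophil-attracting chemokines CXCL5, CXCL1, CXCL2 and IL8 (now named CXCL8), the chemokines CCL2 and CCL20, the interleukins IL1A and IL1B, and the cytokines LIF and IL6. They were listed by symbol, and each matched 1 gene on a reference chromosome, so 10 of the 63152 genes counted are covered. The RNA came from A549, a human lung adenocarcinoma cell line. It was taken 72 hours after reverse transfection with 10 nM siRNA, from 3 cultures given an siRNA pool against RPS19 (siRPS19) and 3 given a non-targeting siRNA (siOTP), which the labels call biological replicates. The RPS19 product is part of the small subunit of the ribosome. The RPS19 pool was of the siGENOME line and the control of the ON-TARGETplus line, so the effect of the target and that of the reagent line cannot be told apart. All 6 cultures had the same transfection reagent and a change of medium after the first day, and no cytokine or other inflammatory stimulus is named in the labels.

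Chemokines with the ELR motif, such as CXCL5, CXCL1, CXCL2 and IL8, draw neutrophils through the receptor CXCR2. CCL2 draws monocytes through CCR2, CCL20 draws lymphocytes and dendritic cells through CCR6, the interleukins act through the IL-1 receptor, and LIF and IL6 signal through receptors that share the gp130 subunit. Epithelial cells switch on many of these genes through NF-kB and AP-1 binding near the start site, and their mRNAs are short-lived because AU-rich elements in the 3' untranslated region recruit decay factors. The libraries measure mRNA only, not secreted protein, and fewer expressing cells cannot be told apart from less mRNA per cell.

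The promoters of the 4 CXC chemokines are shown because these genes lie in 1 cluster and were all lower after RPS19 siRNA, and the promoter of IL1B because that gene was higher. Each sequence is the RefSeq window of 300 bases (GRCh38.p14) from 250 bases before the start to 50 after it, 5' to 3' on the gene's strand. The windows are chr4:73998628-73998927 (minus strand) for CXCL5, chr4:73869143-73869442 (plus) for CXCL1, chr4:74099146-74099445 (minus) for CXCL2, chr4:73740319-73740618 (plus) for IL8 and chr2:112836730-112837029 (minus) for IL1B. Capitals mark 3 motifs searched on both strands. These are the letters GGNNTTTCC of an NF-kB-like site, the AP-1 letters TGANTCA, and the TATA box letters TATAAA. No matches of different motifs overlapped.
CXCL5: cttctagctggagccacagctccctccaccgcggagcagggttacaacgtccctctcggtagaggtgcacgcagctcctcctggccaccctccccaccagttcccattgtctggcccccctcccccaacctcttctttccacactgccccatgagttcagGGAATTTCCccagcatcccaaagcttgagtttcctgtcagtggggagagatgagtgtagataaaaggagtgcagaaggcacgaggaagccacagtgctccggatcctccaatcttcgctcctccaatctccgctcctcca
CXCL1: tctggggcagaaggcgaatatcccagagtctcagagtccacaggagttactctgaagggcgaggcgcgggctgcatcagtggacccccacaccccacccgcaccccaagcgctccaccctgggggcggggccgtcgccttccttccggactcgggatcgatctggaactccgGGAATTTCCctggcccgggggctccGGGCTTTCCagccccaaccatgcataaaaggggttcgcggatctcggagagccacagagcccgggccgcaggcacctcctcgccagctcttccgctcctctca
CXCL2: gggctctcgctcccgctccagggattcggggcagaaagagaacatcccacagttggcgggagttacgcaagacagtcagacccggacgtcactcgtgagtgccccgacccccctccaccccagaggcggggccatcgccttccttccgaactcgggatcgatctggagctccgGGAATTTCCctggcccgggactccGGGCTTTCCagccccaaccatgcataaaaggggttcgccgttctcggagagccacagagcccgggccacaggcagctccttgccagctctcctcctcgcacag
IL8: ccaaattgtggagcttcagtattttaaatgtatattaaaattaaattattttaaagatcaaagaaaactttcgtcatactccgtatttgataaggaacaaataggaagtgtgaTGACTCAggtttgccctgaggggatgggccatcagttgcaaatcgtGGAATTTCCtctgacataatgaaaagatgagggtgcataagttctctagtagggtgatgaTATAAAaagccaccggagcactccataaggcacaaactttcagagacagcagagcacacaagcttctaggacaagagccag
IL1B: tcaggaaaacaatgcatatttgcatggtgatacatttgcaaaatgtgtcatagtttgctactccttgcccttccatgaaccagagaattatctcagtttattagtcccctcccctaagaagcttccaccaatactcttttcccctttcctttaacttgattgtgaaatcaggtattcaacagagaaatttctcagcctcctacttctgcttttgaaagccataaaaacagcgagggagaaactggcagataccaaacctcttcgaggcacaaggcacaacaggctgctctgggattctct

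All 4 CXC windows held the NF-kB-like letters. The run GGAATTTCC began 90 bases before the start in CXCL5, 78 in CXCL1, 77 in CXCL2 and 91 in IL8. CXCL1 and CXCL2 each had a further match, GGGCTTTCC, at 53 bases before the start, and their windows were 71.9% identical in a global alignment. The other pairs of these windows were 45.2% to 55.8% identical. IL8 alone among the 4 had the AP-1 letters and TATAAA, and the IL1B window had no match to any of the 3 motifs. RefSeq windows were found for 8 of the 10 genes, not for CCL2 and LIF, and 6 of the 8 held the NF-kB-like letters, against 7.61% of 27305 genes with a window. AP-1 letters were in 2 of the 8 (IL8 and IL1A) and in 9.37% of genes, and TATAAA was in 3 (IL8, IL1A and CCL20) and in 13.99% of genes. TATAAA began 31 bases before the start in IL8 and 29 in CCL20. In IL1A it began 239 bases before the start, in 1 of its windows. Only the letters given were searched, so near variants of the motifs were not counted. The NF-kB-like letters were picked from sites known in these very promoters, so their share here is a description. A match is not evidence of binding.

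AU-rich stretches are shown because such elements are known to mark cytokine mRNAs for rapid decay. The next lines give, for 5 of the genes, the first window of 30 bases in the 3' untranslated region with the most ATTTA, which is in capitals. They were taken from GENCODE release 29 transcripts on GRCh38, as DNA letters on the gene's strand. The 5 windows shown held 3 to 5 ATTTA. Those of the genes not shown held 3 in LIF, 2 each in CXCL5 and IL6, and 1 in CCL2. The windows shown are chr4:74097590-74097619 (minus strand) for CXCL2, chr4:73870665-73870694 (plus) for CXCL1, chr4:73743108-73743137 (plus) for IL8, chr2:112830003-112830032 (minus) for IL1B and chr2:112774424-112774453 (minus) for IL1A.
CXCL2: aagtcttctATTTATTTATTTATTTATTTA
CXCL1: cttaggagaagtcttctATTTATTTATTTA
IL8: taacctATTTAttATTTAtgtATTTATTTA
IL1B: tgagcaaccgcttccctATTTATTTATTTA
IL1A: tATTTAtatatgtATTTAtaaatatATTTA

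The longer element TATTTAT occurred 8 times in the 3' untranslated region of CXCL2, 5 times in LIF, 4 times each in CXCL1, IL8 and IL1B, and 3 times each in CXCL5, IL1A and IL6. It did not occur in CCL2, whose region of 376 bases held a single ATTTA, and CCL20 had no transcript under the selection used. At least 1 TATTTAT was present in 32.2% of 10332 tested genes with a 3' untranslated region, and at least 3 in 6.02%. Of the genes that fell, CXCL5, CXCL2, IL8 and CXCL1 held TATTTAT and CCL2 did not. IL1B, which rose, and LIF, which did not pass the test, held it too. The part of this element in the results was not tested.

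Each library held 20814110 to 23889372 counts on genes. Entries assigned to no gene were 5.13% to 6.36% in siRPS19 libraries and 3.39% to 3.85% in siOTP libraries, and the part of this difference in the results was not tested. RPS19 itself averaged 41.7 ± 4.91 CPM (counts scaled per 1000000 counts with TMM factors) in the 3 siRPS19 libraries, against 1472 ± 96.6 CPM in the 3 siOTP libraries (± SD). Of 17171 genes tested with edgeR's quasi-likelihood test, 39.5% were higher in siRPS19 and 38.9% lower at an adjusted p under 0.05. Scaling by library totals instead raised the median log2 fold change of all genes by 0.29, and the calls became 9114 higher and 4734 lower, against 6778 and 6673. Directions below are on the TMM scale, and where another scaling turned the direction of a gene named below, this is said. Of 6 leukocyte markers, 5 were at or near 0. CD3E had no count in any library, PTPRC, LYZ, CD68 and MS4A1 had at most 4 counts per group, and the 6 markers together had 1.85 to 3.02 CPM in siRPS19 and 1.49 to 2.33 CPM in siOTP. Most of it was CD14, with 2.34 CPM in siRPS19 and 1.74 CPM in siOTP, which did not pass the test (log2 fold change 0.42) but was called higher with library totals (0.71) and upper-quartile factors (0.59). All 5 epithelial markers were expressed, with 3151 to 3530 CPM together in siRPS19 and 5184 to 5609 CPM in siOTP; KRT18 averaged 164 CPM in siRPS19 and 432 CPM in siOTP. On the TMM scale 4 of the 5 fell, and CDH1, which encodes E-cadherin, rose (50.02 CPM in siRPS19 and 30.6 CPM in siOTP). The 3 fibroblast markers had 14.6 to 20.3 CPM together in siRPS19 and 32.2 to 40.05 CPM in siOTP. Of these, COL1A1 fell (16.01 CPM in siRPS19 and 35.7 CPM in siOTP), and DCN had 6 counts in siRPS19 and 7 in siOTP. PDGFRB rose, with 52 counts in siRPS19 and 11 in siOTP. It passed the filter on low counts only through the siRPS19 libraries, so its rise was in part set by the filter. The part of these marker differences in the results below was not tested.

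In all, 5 of the 10 genes fell after RPS19 siRNA (CXCL5, CXCL2, CCL2, IL8 and CXCL1), IL1B rose, and LIF did not pass the test. IL1A, CCL20 and IL6 had too few counts to be tested. The 5 genes that fell were each at least 2-fold lower, as were 12.4% of all genes tested, and 18.5% were at least 2-fold higher, like IL1B. In these 6 genes the groups did not overlap, as in 39.6% of all genes with siRPS19 lower and 40.1% with siRPS19 higher. Of the 7 genes that passed the filter on low counts, 71.4% fell, against 38.9% of all genes tested, and the median log2 fold change was -1.90, against 0.02 over all genes tested; these values describe the list and test nothing. IL1B passed that filter only through the siRPS19 libraries, so its rise was in part set by the filter. The 10 genes together had 131, 117 and 116 CPM in the siRPS19 libraries and 354, 357 and 404 CPM in the siOTP libraries. Most of that gap was CXCL5.

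**Figure D1:**
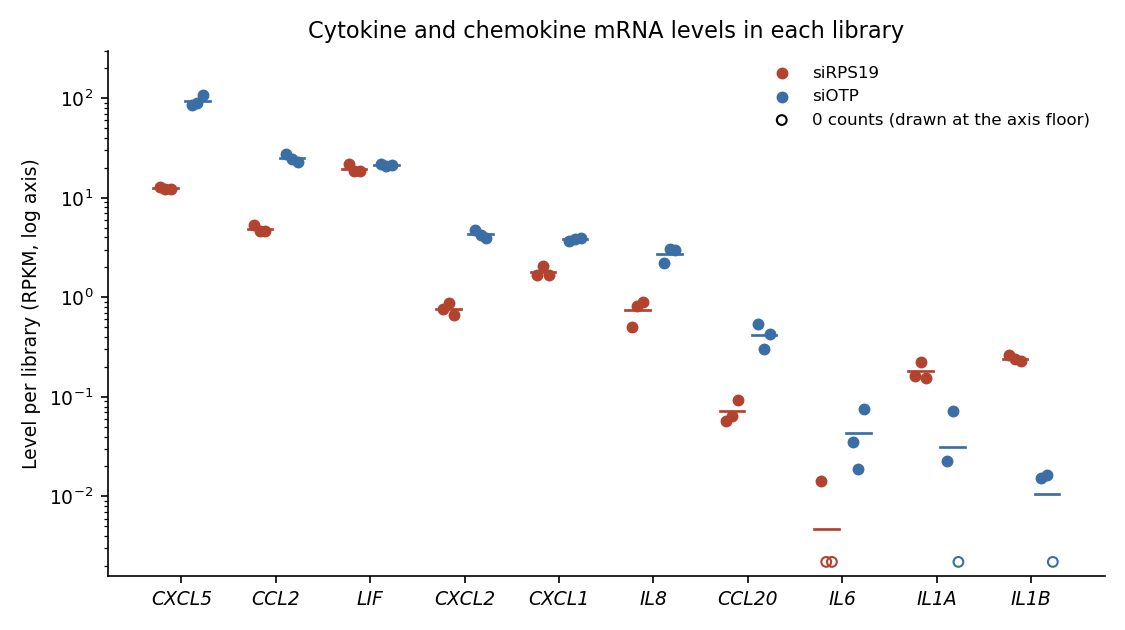
Level of each gene in every library as RPKM (CPM per kilobase of transcript, log axis), siRPS19 in red and siOTP in blue. Points are libraries, lines are group means (n = 3), and open circles are libraries with 0 counts, drawn at the axis floor. CXCL5, CCL2, CXCL2, CXCL1 and IL8 lie lower in all 3 siRPS19 libraries, IL1A and IL1B higher, and LIF overlaps.

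CXCL5 (ENSG00000163735, chromosome 4, 74861359 to 74864496, minus strand, hg19), a neutrophil chemokine first known from epithelial cells, had the highest level of the 10 genes in siOTP cells and the largest fall of the 7 tested. The siRPS19 libraries held 32.9, 30.9 and 30.8 CPM and the siOTP libraries 218, 226 and 275 CPM. The groups lay far apart, and siOTP replicate 3 was the highest of all. The level was 7.60-fold lower (log2 fold change -2.93 ± 0.10 SE; edgeR's quasi-likelihood test, adjusted p = 5.96e-08). Falls of at least 7-fold that passed the test made up 1.69% of all genes tested.

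CXCL2 (ENSG00000081041, chromosome 4, 74962752 to 74965010, minus strand, hg19), a neutrophil chemokine that NF-kB induces, had 30, 30 and 24 counts in the siRPS19 libraries and 148, 125 and 115 counts in the siOTP libraries. Its level was 1.15 ± 0.154 CPM in siRPS19, against 6.45 ± 0.594 CPM in siOTP (SD over 3 libraries). Every siRPS19 library was below every siOTP library, and the fall was 5.61-fold (log2 fold change -2.49 ± 0.17 SE; edgeR's quasi-likelihood test, adjusted p = 1.80e-11). IL8 (ENSG00000169429, chromosome 4, 74606223 to 74609433, plus strand, hg19), the main neutrophil attractant in human airways, had 30, 43 and 49 counts in siRPS19 and 106, 136 and 131 counts in siOTP. Replicate 1 was the lowest library in both groups, and the groups did not overlap. IL8 fell 3.72-fold (log2 fold change -1.90 ± 0.19 SE; same test, adjusted p = 1.48e-08).

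CXCL1 (ENSG00000163739, chromosome 4, 74735110 to 74736959, plus strand, hg19), whose product acts on the same receptor, fell least of the 5 genes. It had 57, 61 and 53 counts in siRPS19 and 100, 99 and 100 counts in siOTP, so the siOTP libraries were almost level and all above the siRPS19 ones. The fall was 2.13-fold (log2 fold change -1.09 ± 0.15 SE; edgeR's quasi-likelihood test, adjusted p = 1.00e-06). CXCL1, CXCL2 and their neighbour CXCL3 are alike in sequence. Of all stretches of 50 bases in GENCODE transcripts of CXCL1, 4.81% also occurred in CXCL2 or CXCL3, and 12.5% of those of CXCL2 in CXCL1 or CXCL3. How the counting divided such reads is not known. For CXCL5 1.13% were shared with another gene, and the other 7 genes had none.

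The 4 CXC genes belong to a cluster on chromosome 4 that spans 358.8 kb from IL8 to CXCL2 and holds 16 annotated genes. Of these, 5 could be tested and all 5 fell, as did 38.9% of all genes tested. Among the 5 are the 4 CXC genes already described. The gene of the cluster outside the list that was tested was CXCL3, another neutrophil chemokine, with 17, 13 and 17 counts in siRPS19 and 76, 66 and 68 counts in siOTP. It fell 5.42-fold (log2 fold change -2.44 ± 0.20 SE; edgeR's quasi-likelihood test, adjusted p = 8.18e-10). The other 11 genes of the cluster were at or near 0, among them CXCL6 with 4 counts over the siRPS19 libraries and 7 over the siOTP libraries, and PF4 with 0 and 8.

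**Figure D2:**
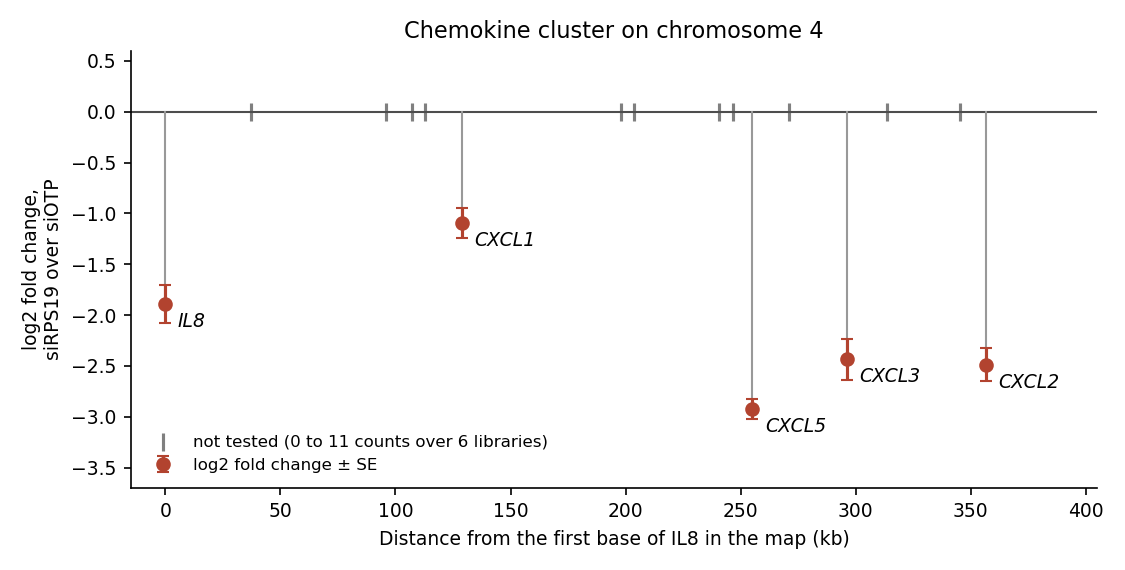
log2 fold change (siRPS19 over siOTP, y axis) of each tested gene in the chromosome 4 chemokine cluster against the distance of its lower end from that of IL8 in kb (x axis). Points carry ± SE, and grey ticks are the 11 annotated genes with too few counts to test. CXCL1 shows the smallest fall (-1.09) and CXCL5 the largest (-2.93), with IL8, CXCL3 and CXCL2 between.

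Ratios between 2 genes within a library do not depend on the scaling of libraries, and they were compared for the 15 pairs of the 6 genes with at least 10 counts in every library. CXCL1 had 1.90, 2.03 and 2.21 times the counts of CXCL2 in the siRPS19 libraries, and 0.676, 0.792 and 0.870 times in the siOTP libraries. CXCL1 thus had more counts than CXCL2 in all 3 siRPS19 libraries and fewer in all 3 siOTP libraries, a difference of 1.40 on the log2 scale. CXCL1 relative to CXCL5 was higher in siRPS19, by 1.83 on the log2 scale, and IL8 relative to CXCL5 by 1.00. IL8 relative to CXCL1 was lower in siRPS19, with a difference of -0.83. For the other pairs within the cluster the groups overlapped, with differences of 0.57 for IL8 relative to CXCL2 (exact two-sided permutation p = 0.3) and 0.43 for CXCL2 relative to CXCL5 (exact p = 0.2). CXCL2 relative to CCL2, a gene on another chromosome, was 0.189, 0.248 and 0.188 in siRPS19 and 0.226, 0.226 and 0.227 in siOTP, and the groups overlapped. Its difference of -0.13 on the log2 scale was within the spread of the siRPS19 libraries (SD 0.23, n = 3). For the pairs within the cluster whose groups did not overlap, the exact two-sided permutation test gave p = 0.1, the smallest that 3 libraries against 3 allow. Adjusted over the 15 pairs it was 0.136, so no pair passed.

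CCL2 (ENSG00000108691, chromosome 17, 32582304 to 32584222, plus strand, hg19), the monocyte chemoattractant, had 159, 121 and 128 counts in siRPS19 and 656, 553 and 506 counts in siOTP. Replicate 1 was the highest library in both groups. On the CPM scale its level was 5.55 ± 0.488 in siRPS19, against 28.5 ± 2.72 in siOTP (SD over 3 libraries). It fell 5.12-fold (log2 fold change -2.36 ± 0.09 SE; edgeR's quasi-likelihood test, adjusted p = 2.77e-15). The other genes of the CCL cluster on chromosome 17, from CCL2 to CCL1, had at most 2 counts over the 6 libraries, so CCL2 was the cluster's one measurable gene. CCL20 (ENSG00000115009, chromosome 2, 228678558 to 228682272, plus strand, hg19) was near 0. Its counts were 2, 2 and 3 in siRPS19 and 15, 8 and 11 in siOTP, which do not overlap. The ratio of siRPS19 over siOTP was 0.169 (95% exact interval 0.0631 to 0.387, counting error only). In the fit without a filter its log2 fold change was -2.55 ± 0.55 SE (edgeR, adjusted p = 1.30e-05).

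The interleukin genes IL1A and IL1B, neighbours on chromosome 2 whose products start inflammatory signalling through the same receptor, were higher in siRPS19 cells at very low levels. IL1B (ENSG00000125538, chromosome 2, 113587328 to 113594480, minus strand, hg19) had 21, 17 and 17 counts in siRPS19 and 1, 1 and 0 counts in siOTP. With 2 counts over the siOTP group, the ratio was 22.5 (95% exact interval 5.95 to 191, counting error only), and edgeR's quasi-likelihood test gave an adjusted p of 7.68e-07. IL1A (ENSG00000115008, chromosome 2, 113531492 to 113542167, minus strand, hg19) had 9, 11 and 8 counts in siRPS19 and 1, 3 and 0 counts in siOTP, a ratio of 5.73 (2.01 to 22.5). It was below the filter, and the fit without one gave 2.38 ± 0.68 SE on the log2 scale (edgeR, adjusted p = 0.00133, which may be too small, as for CCL20). Even in siRPS19 cells their levels were only 0.242 ± 0.0172 RPKM for IL1B and 0.181 ± 0.0378 RPKM for IL1A (SD, n = 3 each). The other 13 genes from IL1A to IL1RN on chromosome 2 had at most 2 counts over the 6 libraries. They include IL1RN, the receptor antagonist, with 2 counts in siRPS19 and 0 in siOTP.

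LIF (ENSG00000128342, chromosome 22, 30636436 to 30642840, minus strand, hg19), a cytokine of the gp130 family, was abundant in both groups. It had 86.4, 74.2 and 73.4 CPM in siRPS19 and 86.8, 83.5 and 84.6 CPM in siOTP. The siRPS19 replicate 1 lay within the siOTP range and the other 2 siRPS19 libraries below it. The log2 fold change was -0.12 ± 0.06 SE (edgeR's quasi-likelihood test, adjusted p = 0.0518). With the replicate number as a block, which pairs libraries of the same date, the fall passed (adjusted p = 0.0162), and without siRPS19 replicate 1 it was -0.19 (adjusted p = 0.00151). With library totals the sign turned, to 0.16 (adjusted p = 0.00708), and so it did with upper-quartile factors, to 0.05. Over all 14 alternatives the adjusted p ran from 0.00083 to 0.398. The lowest came from the fit without a filter, whose p-values may be too small. On the opposite strand LIF overlaps other annotated genes that had 144 counts over the 6 libraries, against 5732 counts on LIF in siRPS19 and 5099 in siOTP, and whether the counting used strand was not found in the labels. IL6 (ENSG00000136244, chromosome 7, 22765503 to 22771621, plus strand, hg19), the best known of this cytokine family, was near 0 in both groups. It had 1, 0 and 0 counts in siRPS19 and 2, 1 and 4 counts in siOTP. The ratio of siRPS19 over siOTP was 0.117 (95% exact interval 0.00260 to 0.911, counting error only), and edgeR without a filter gave an adjusted p of 0.0662.

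**Figure D3:**
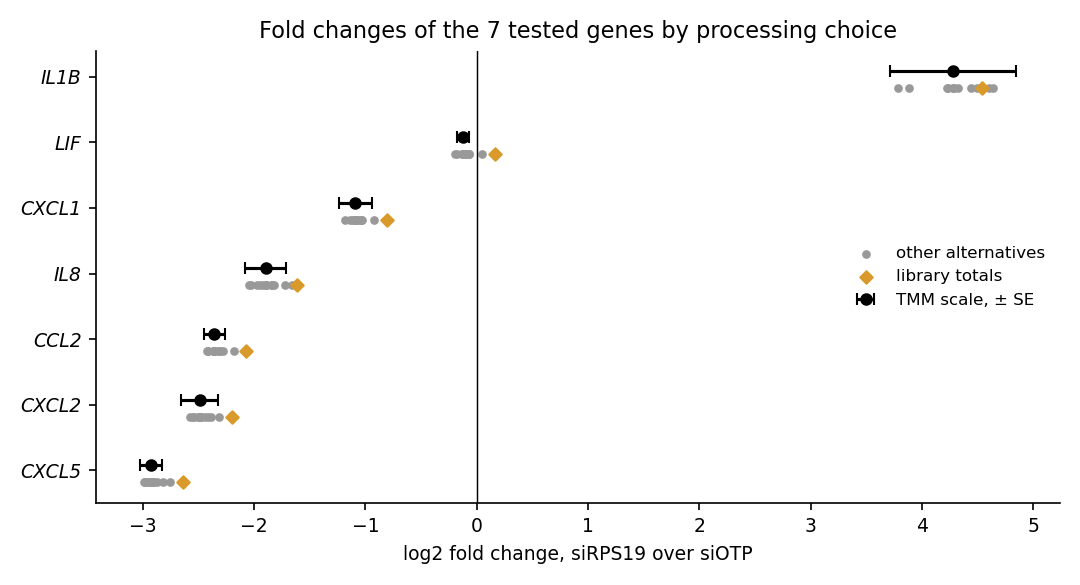
log2 fold change (x axis) of the 7 tested genes, siRPS19 over siOTP. Black points with bars are the TMM scale ± SE, orange diamonds use library totals, and grey points are the other alternatives. LIF crosses 0 (-0.19 to 0.16), and the other 6 genes keep their direction.

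The makeup of the 10 genes' mRNA changed with these shifts. CXCL5 held 25.1%, 26.3% and 26.6% of their counts in the siRPS19 libraries and 61.6%, 63.4% and 68.02% in the siOTP libraries. LIF held 65.9%, 63.2% and 63.3% in siRPS19 and 24.5%, 23.4% and 20.9% in siOTP. Set against each other within a library, CXCL5 had 0.381, 0.416 and 0.420 times the counts of LIF in siRPS19 and 2.51, 2.71 and 3.25 times in siOTP. Per length of transcript the order of levels in siRPS19 was LIF (19.7 RPKM), CXCL5 (12.4), CCL2 (4.88), CXCL1 (1.81), CXCL2 (0.766), IL8 (0.740), IL1B (0.242), IL1A (0.181), CCL20 (0.0719) and IL6 (0.00473). In siOTP it was CXCL5 (94.5 RPKM), CCL2 (25.1), LIF (21.4), CXCL2 (4.30), CXCL1 (3.85), IL8 (2.75), CCL20 (0.422), IL6 (0.0434), IL1A (0.0314) and IL1B (0.0106). The libraries of CXCL2 and IL8 overlapped in siRPS19, and so did those of CXCL2 and CXCL1 and of IL6, IL1A and IL1B in siOTP. In the authors' deposited table, with 1 value per group, LIF was 21.69 RPKM in siRPS19 and 19.33 RPKM in siOTP, and CXCL5 was 13.69 RPKM and 85.05 RPKM.

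**Figure D4:**
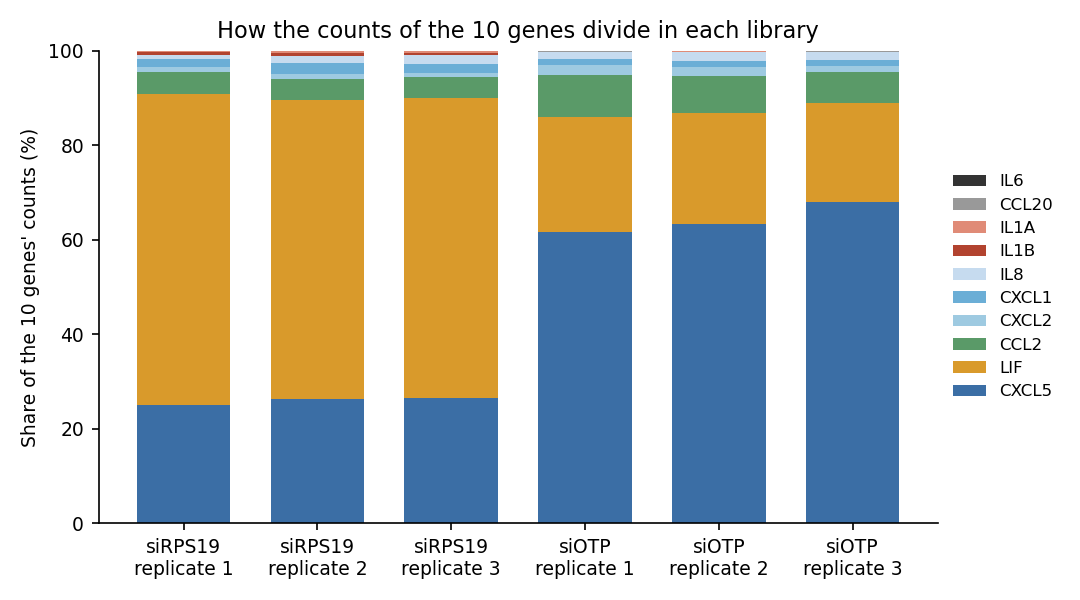
Share (%) of each gene in the summed counts of the 10 genes, 1 bar per library. LIF takes 63.2% to 65.9% of the bar in siRPS19 and CXCL5 61.6% to 68.02% in siOTP.

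Here and for the gene groups that follow, genes said to rise or fall passed edgeR's quasi-likelihood test at an adjusted p under 0.05. Of 16 genes for receptors and their decoys, 8 were tested, of which 4 rose (50.0%) and 3 fell (37.5%). Of all genes tested 39.5% rose and 38.9% fell. With library totals 5 rose and 2 fell. IL6R, the IL-6 binding chain, rose by 1.33 on the log2 scale, with 21.1 CPM in siRPS19 and 8.40 CPM in siOTP. IL6ST, which encodes gp130, the subunit shared by the IL-6 and LIF receptors, fell by 0.97 on the log2 scale, with 112 CPM in siRPS19 and 218 CPM in siOTP. IL1RAP, the accessory chain of the IL-1 receptor, rose (21.7 CPM in siRPS19 and 9.74 CPM in siOTP), and its partner IL1R1 fell (49.7 and 70.8 CPM). LIFR, named after its values were seen, rose by 0.49 on the log2 scale. The chemokine receptors for the 6 chemokines were at or near 0, also named after their values were seen: CXCR1 had no count, CXCR2 16 counts in siRPS19 and 4 in siOTP, CCR2 1 and 0, and CCR6 15 and 11.

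Other secreted ligands were mostly silent or mixed. Of 30 other chemokine genes 3 were tested, of which CXCL3 fell and CXCL16, a chemokine made as a membrane protein, rose to 29.01 CPM in siRPS19 against 21.5 CPM in siOTP. The remaining one, CCL28, did not pass (log2 fold change -0.05, and 0.23 with library totals and 0.12 with upper-quartile factors). Of 38 other cytokine genes 13 were tested, of which 5 rose (38.5%) and 4 fell (30.8%). These shares stand beside 39.5% and 38.9% of all genes tested. With library totals 7 rose and 2 fell, while the calls over all genes also moved to 9114 higher and 4734 lower. Of the 5 that rose on the TMM scale, IL7, IL33 and CTF1 passed the filter only through the siRPS19 libraries. CNTF, which fell, passed it only through the siOTP libraries, so these calls were in part set by the filter. IL7, a lymphocyte growth factor, had 75 counts in siRPS19 and 3 in siOTP, and IL33, an alarmin, had 57 and 5. TNFSF15, a member of the tumour necrosis factor family, rose by 1.73 on the log2 scale, with counts of 512 in siRPS19 and 126 in siOTP. IL15, which sustains natural killer cells, fell by 0.74 on the log2 scale. IL11, like LIF a gp130 cytokine, fell by 0.37 on the log2 scale (57.0 CPM in siRPS19 and 73.8 CPM in siOTP), and did not pass with library totals (-0.09). CSF1 did not pass (138 CPM in siRPS19 and 143 CPM in siOTP, log2 fold change -0.05). It was called higher with library totals (0.23, adjusted p = 0.000151 by edgeR) and with upper-quartile factors (0.12). TNF had no count in any library.

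Of 25 tested genes of the NF-kB, AP-1 and C/EBP families, which control transcription of these ligands, 9 rose (36.0%) and 11 fell (44.0%), beside 39.5% and 38.9% of all genes tested. In the same list 12 rose and 9 fell with library totals. With the replicate block, IKBKG, FOSL2 and JUN were also called lower, while the calls over all genes were 6783 higher and 6701 lower. IKBKG and JUN were named after their values were seen, and other scalings turned both. With library totals IKBKG was called higher (log2 fold change 0.16, adjusted p = 0.028 by edgeR). JUN was at 0.14 with library totals and did not pass. With upper-quartile factors IKBKG was at 0.042 and JUN at 0.025, and neither passed. RELA, the transactivating NF-kB subunit, fell by 0.98 on the log2 scale (43.6 CPM in siRPS19 and 86.2 CPM in siOTP). NFKBIZ, an NF-kB cofactor, rose by 1.53, IKBKB, a kinase that releases NF-kB, by 0.69 and the inhibitor NFKBIA by 0.42. CEBPG fell by 1.11 on the log2 scale. The AP-1 gene FOSL2 did not pass (-0.09). It was called higher with library totals (0.20) and lower with the replicate block. With upper-quartile factors it was at 0.084 and did not pass. The median of the family list was -0.13, beside 0.02 over all genes tested. With library totals it was 0.16, beside 0.31 over all genes. With upper-quartile factors it was 0.04, beside 0.20 over all genes.

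Of 21 tested genes of IL-1 and gp130 signalling, 12 rose (57.1%) and 5 fell (23.8%), beside 39.5% and 38.9% of all genes tested. With library totals 16 rose and 2 fell, while the calls over all genes also moved to 9114 higher and 4734 lower. The median log2 fold change was 0.22, and 0.51 with library totals, which shift the median of all genes by 0.29. NLRP1, an inflammasome sensor, rose by 3.82 on the log2 scale, with 52.8 CPM in siRPS19 and 3.73 CPM in siOTP. CASP1, the protease that cuts the IL1B product to its active form, had 95 counts in siRPS19 and 8 in siOTP, and passed the filter only through the siRPS19 libraries, so its rise was in part set by the filter. Its adaptor PYCARD rose by 1.43 on the log2 scale. Both were named after their values were seen. So were SOCS1 and SOCS3 of the same list. SOCS3 fell by 0.79 on the log2 scale, with 24.9 CPM in siRPS19 and 42.9 CPM in siOTP. SOCS1 had 93 counts in siRPS19 and 27 in siOTP. SOCS1 also rose and passed the filter only through the siRPS19 libraries. The 12 rises thus include CASP1 and SOCS1, whose calls were in part set by the filter. STAT3, the transcription factor downstream of gp130, rose by 1.12 on the log2 scale, the kinase IRAK4 by 1.33 and TAB3 by 1.10. JAK1, the kinase bound to gp130, fell by 0.44 on the log2 scale (370 CPM in siRPS19 and 502 CPM in siOTP), and IRAK1 rose by 0.12, a call that held in 10 of the 14 alternatives.

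Of 15 tested genes for regulators of cytokine mRNA decay, 5 rose (33.3%) and 9 fell (60.0%), beside 39.5% and 38.9% of all genes tested. The median log2 fold change was -0.41. With library totals 6 rose and 8 fell and the median was -0.12, and with upper-quartile factors it was -0.24. KHSRP and HNRNPD, whose products bind AU-rich elements and promote decay, fell by 1.37 and 1.34 on the log2 scale, and RC3H2 by 1.15. ELAVL1, whose product HuR stabilises such mRNAs, fell by 1.07 (67.7 CPM in siRPS19 and 142 CPM in siOTP). ZFP36L1, which promotes decay, rose by 1.08 (417 CPM in siRPS19 and 197 CPM in siOTP).

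**Figure D5:**
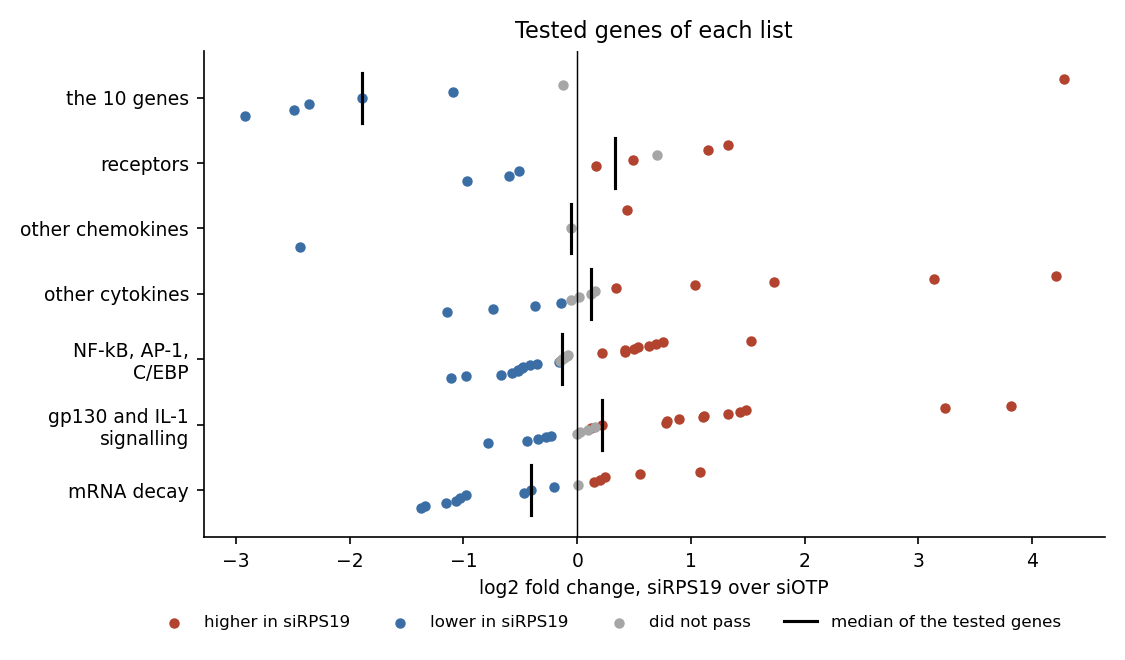
log2 fold change (siRPS19 over siOTP, x axis) of every tested gene in 7 lists (rows), red for higher, blue for lower and grey for not past the test, with a black line at each list's median. The 10 genes' list has a median of -1.90 and the mRNA decay list -0.41.

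The genes most like the 3 most abundant members over the 6 libraries were found by the root mean square difference of centred log2 CPM. For CXCL5 they were BRI3BP (difference 0.068) and the pseudogene DHFRP1 (0.075), which were 7.29-fold and 8.21-fold lower. For LIF, SLC25A53 (0.036) is given, and for CCL2 they were AKAP12 (0.070) and ESAM (0.070).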

How the data were processed

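RNA of 6 A549 libraries was measured by paired-end sequencing. TopHat2 (2.0.8b), HTSeq, DESeq and R (3.0.2) are named with hg19 in the submitters' processing notes. The counting mode, strand setting and annotation release were not found in the labels or headers. The authors deposited raw read counts per Ensembl gene for each library. They also deposited an RPKM table with 1 value per group, whose mean counts equalled the library mean plus 1 for 100% of 62729 genes within a relative tolerance of 0.001. It gave symbols, coordinates and transcript lengths, and the RPKM per library was computed from the counts with those lengths. Entries naming no gene were left out of library sizes; reads assigned to no gene and ambiguous reads took 3.39% to 6.36% and 7.50% to 8.24% of all entries.

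Genes were kept with filterByExpr (minimum count 10, minimum total 15) and compared with edgeR 4.0.16 (TMM factors, robust quasi-likelihood fit, R 4.3.3), with Benjamini-Hochberg adjustment over 17171 genes and a threshold of 0.05. The script was tested on simulated data in which few genes changed and all shared a common spread between replicates. That test does not cover the scaling or the gene-by-gene spread of these data. CPM values are on the TMM scale, and each standard error is the log2 fold change divided by the root of its F value. Also run were 3 other scalings, 2 other filters, a replicate block, each library left out in turn, limma-voom (limma 3.58.1) and DESeq2 1.42.0. Same-numbered libraries share a date in the labels, which pairs them; their deviations from the group means correlated at 0.055, -0.095 and 0.045 across genes. Replicates differed beyond sampling noise (chi-square per degree of freedom 4.40 to 16.6). Intervals of ratios are exact binomial ones.

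The members and gene lists were chosen with earlier results of these data known. Named are the 10 genes, the genes of their clusters, up to 4 genes per list with the smallest p past the test, up to 2 with the highest level, and for the 3 most abundant members the 2 genes nearest in centred log2(CPM + 0.5); others are identified in the text. 1 gene that this rule names is not reported here.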

Additional observations from a re-analysis of the deposited data

How the results depend on the processing

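Over the 14 alternatives, CXCL5, CXCL2, CCL2, IL8 and CXCL1 stayed lower and past the threshold in every one, with log2 fold changes from -2.99 to -2.64, -2.58 to -2.20, -2.42 to -2.07, -2.05 to -1.61 and -1.18 to -0.81. IL1B stayed higher and past it in the 13 that could test it (3.79 to 4.64). LIF, at -0.12 and not past the threshold, passed with DESeq2 size factors (-0.12), without a filter (-0.17) and with the replicate block (-0.12), and turned to 0.16 with library totals and 0.051 with upper-quartile factors. Leaving out each library in turn gave -0.19 to -0.071, and it passed without siRPS19 replicate 1 alone; the cause was not tested. The block changed no other call among the 10 genes.

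Of the 10 genes, 1 was called higher; this became 2 with library totals (LIF), 2 without a filter (IL1A) and 0 with a mean of at least 1 CPM, which leaves IL1B out. Calls of lower genes were 5, and 5 to 7 over the alternatives. The 7 came from the fit without a filter, whose p-values may be too small. Other secreted ligands called lower were 5, and 3 with library totals and 3 with a mean of at least 1 CPM. Receptor genes called lower were 3, and 2 with library totals. Of the transcription factor, signalling and mRNA decay genes pooled, 26 were called higher and 25 lower. With library totals these calls were 34 and 19, and with the replicate block 26 and 28. Within them, IL-1 and gp130 signalling genes called lower were 5, and 2 with library totals. Depth limits IL6, IL1A, IL1B and CCL20, which had 8 to 57 counts over all 6 libraries; for them the size of a change is uncertain.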

Other observations

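Several immune ligand and receptor genes below the filter on low counts were unevenly split between the groups, chosen after their values were seen and not tested. IL23A, a subunit of interleukin 23, had 39 counts in siRPS19 (23, 9 and 7 in replicates 1 to 3) and 7 in siOTP (1, 3 and 3). LTA, which encodes lymphotoxin alpha, had 13 counts in siRPS19 and 1 in siOTP, and OSM, which encodes oncostatin M, a relative of LIF, had 15 and 4. IL1R2, the decoy receptor for interleukin 1, ran the other way, with 3 counts in siRPS19 and 19 in siOTP, as did CSF2 with 1 and 6.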
